A study of Mus musculus with 38 samples.

Results

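The genes described here carry out meiotic recombination or build the chromosome axis on which it takes place. The 10 genes are *Prdm9*, *Spo11*, *Rec114*, *Mei1*, *Hormad1*, *Dmc1*, *Tex15*, *Msh4*, *Msh5* and *Mlh3*, and they were chosen by gene symbol among 18019 genes with a usable probe set. Together they are read by 13 of the 45101 probe sets of the array. *Dmc1*, *Rec114* and *Msh5* have 2 probe sets each, and the other 7 genes have 1 each.

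RNA of whole testes from single males was measured on 38 Affymetrix arrays, 18 from males of 5 days post partum (dpp) and 20 from males of 7 dpp. B6 is the laboratory strain C57BL/6J, and MSM is an inbred strain derived from wild Japanese mice of the subspecies *M. m. molossinus*. B6-ChrXMSM carries nearly the whole X chromosome of MSM on a B6 background, B6-ChrXTMSM carries only its distal part, and the congenic strain XS39-tel carries a smaller distal interval and was sampled at 5 dpp only. The (B6-ChrXTMSM x B6-Chr1MSM)F1 males, called F1 below, have the MSM distal X chromosome together with a single MSM copy of chromosome 1. Every group had 3 males at each age, except the F1 group at 7 dpp with 8. All 10 genes lie on autosomes other than chromosome 1, so that the substitution, congenic and F1 males carry B6 copies of them and MSM males alone carry MSM copies. Each substitution or congenic strain is a single line, so that its MSM segment cannot be told apart from anything else fixed in that line.

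Meiotic recombination begins when PRDM9 marks sites in the genome and SPO11, helped by REC114 and MEI1, cuts both DNA strands there. HORMAD1 sits on the chromosome axis and promotes these breaks, TEX15 and the recombinase DMC1 serve in their repair from the homologous chromosome, MSH4 and MSH5 stabilise the joined molecules, and MLH3 resolves them into crossovers. In the juvenile testis the first germ cells have not yet entered meiotic prophase at the ages sampled, and several of these transcripts appear in spermatogonia ahead of it.

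The values were log2 signals, and the expression filter used below was a group mean above 3.32, the log2 of 10. The medians of the arrays lay between 2.63 and 2.71. The tissue markers were present in every group, with group means of 5.62 to 7.94 for *Ddx4*, a germ cell RNA helicase gene, and of 7.36 to 7.80 for *Wt1*, a Sertoli cell transcription factor gene. A transcript was called lower or higher where limma gave an adjusted p under 0.05 and the fold reached 1.5. The group means of 7 of the 13 member probe sets, those of *Spo11*, *Mei1*, *Msh4*, *Prdm9*, both of *Msh5* and the second of *Rec114*, stayed below the filter in all 11 groups. These 7 were not tested in the comparisons below, and their values are given as a description.

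Expression at 7 dpp was lower in both substitution strains than in B6 for *Tex15*, *Rec114*, *Hormad1* and the second of the 2 *Dmc1* probe sets, where the first of a gene is the one with the higher mean over all arrays. In bulk testis RNA, fewer germ cells and less RNA per germ cell cannot be told apart. In B6-ChrXMSM testes 4 of the 13 member probe sets were called lower and none higher, beside 4.62% of all tested probe sets called lower. In B6-ChrXTMSM testes the count was also 4 lower and none higher, beside 4.50% of all tested probe sets called lower. Over all 13 member probe sets the median log2 fold change was -0.70 in B6-ChrXMSM and -0.49 in B6-ChrXTMSM, against 0.01 and 0.02 over all probe sets tested. The member medians include the 7 probe sets under the filter, whereas the other medians cover tested probe sets only. Both comparisons use the same 3 B6 males. Of the 13 probe sets, 6 passed the filter in each comparison, and *Hormad1* and the second *Dmc1* probe set had means above it in B6 alone.

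*Rec114* encodes a partner of SPO11 in break formation. In B6 males of 7 dpp its log2 signal was 4.81, 4.83 and 4.92. The B6-ChrXMSM males read 3.89, 3.25 and 3.86, and the B6-ChrXTMSM males read 3.30, 3.99 and 3.59. All 6 substitution males were below all 3 B6 males. The log2 fold change was -1.19 in B6-ChrXMSM (standard error 0.16, adjusted p = 0.00073 from limma) and -1.23 in B6-ChrXTMSM (standard error 0.15, adjusted p = 0.000852). The second *Rec114* probe set, below the filter, gave differences of -0.79 and -0.87 from B6.

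*Hormad1* encodes an axis protein that carries a HORMA domain. Its signal in B6 males was 3.67, 3.86 and 3.81, just above the filter. It was 3.08, 2.42 and 2.68 in the B6-ChrXMSM males and 2.34, 2.73 and 2.70 in the B6-ChrXTMSM males. The groups did not overlap, and every substitution male was below the filter, so the size of the difference rests on a weak signal. The log2 fold changes were -1.05 (standard error 0.15, adjusted p = 0.00106) and -1.19 (standard error 0.11, adjusted p = 0.000289).

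*Tex15*, a germ cell gene needed for break repair, was read well above the filter in all groups. The B6 males read 7.45, 7.46 and 7.56, the B6-ChrXMSM males 6.11, 5.84 and 6.02, and the B6-ChrXTMSM males 5.69, 6.48 and 6.04. No substitution male came near the B6 males. The signal was 2.82-fold lower in B6-ChrXMSM (log2 fold change -1.5, standard error 0.08, adjusted p = 1.32e-05 from limma) and 2.68-fold lower in B6-ChrXTMSM (log2 fold change -1.42, standard error 0.17, adjusted p = 0.000744).

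*Dmc1*, which acts in strand exchange during meiosis, was read differently by its probe sets. The second probe set gave 4.53, 4.61 and 4.42 in B6 males of 7 dpp, 3.35, 2.74 and 3.11 in B6-ChrXMSM males and 2.97, 3.56 and 3.09 in B6-ChrXTMSM males. The B6 males were apart from all others by this probe set. Its log2 fold changes were -1.45 (standard error 0.14, adjusted p = 0.000157) and -1.31 (standard error 0.14, adjusted p = 0.000551). The first probe set changed little, by -0.26 (standard error 0.08, adjusted p = 0.029) and -0.11 (standard error 0.07, adjusted p = 0.259), and neither difference reached 1.5-fold. The 2 probe sets disagree, and which of them follows the *Dmc1* transcript was not tested.

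**Figure D1:**
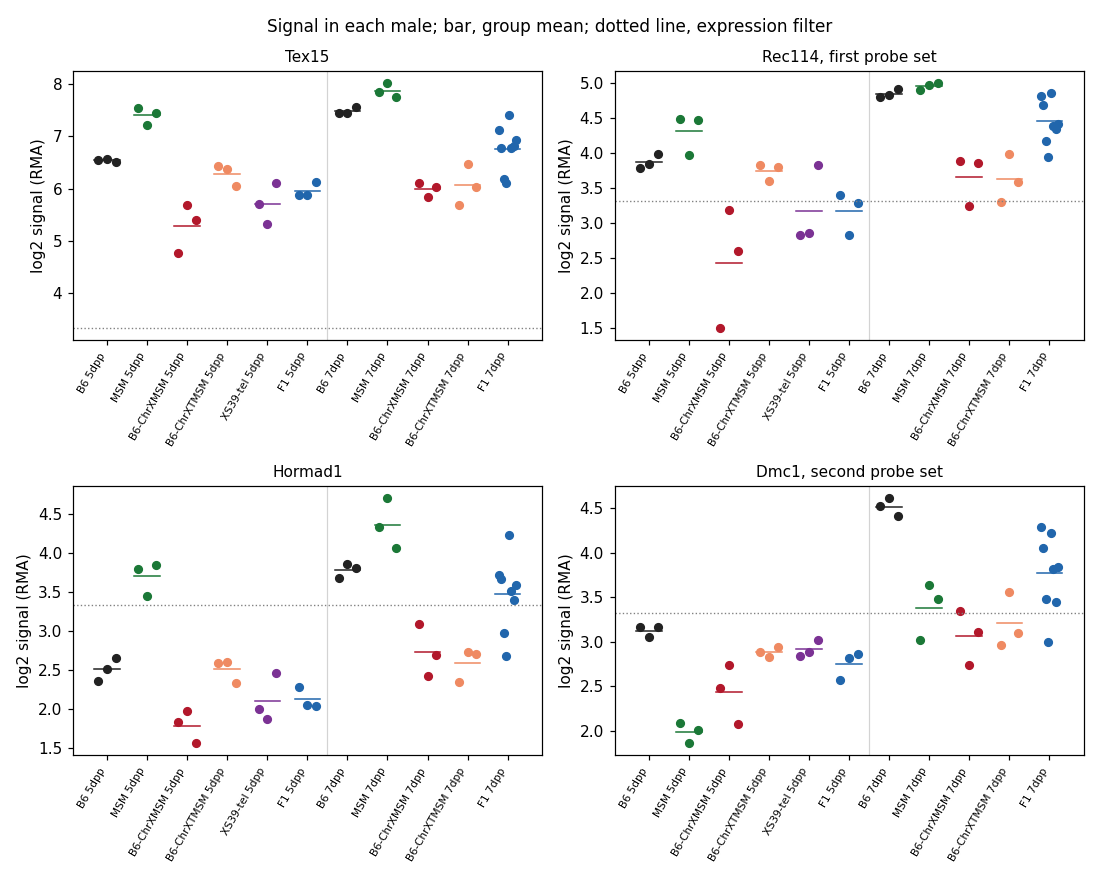
Log2 signal of the 4 member probe sets called lower in both substitution strains at 7 dpp, 1 point per male, with the 11 groups on the x axis, a bar at the group mean and a dotted line at the expression filter of 3.32. The B6 males of 7 dpp lie above all males of both substitution strains in each panel, and the 8 F1 males of 7 dpp spread from 6.10 to 7.41 for *Tex15*.

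Promoter sequence of the genes that fell together is shown beside *Mlh3*, which did not fall, from RefSeq on GRCm38.p6. Of the 10 genes, 8 matched an entry, with 11 start sites. Each line is the 250 bases before the start, 5′ to 3′ on the strand of the gene, for *Rec114* (chr9:58741560-58741809, minus strand), *Hormad1* (chr3:95559427-95559676, plus strand), *Dmc1* (chr15:79605110-79605359, minus strand) and *Mlh3* (chr12:85270600-85270849, minus strand). Capitals mark the E-box CACGTG and the E2F core TCCCGC, searched on both strands, so that the latter can also read GCGGGA.
Rec114: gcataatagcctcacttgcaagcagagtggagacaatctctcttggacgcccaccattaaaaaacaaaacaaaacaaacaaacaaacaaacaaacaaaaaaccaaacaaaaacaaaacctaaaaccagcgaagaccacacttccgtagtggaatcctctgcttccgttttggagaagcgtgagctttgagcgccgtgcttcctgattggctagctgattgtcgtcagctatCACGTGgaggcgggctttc
Hormad1: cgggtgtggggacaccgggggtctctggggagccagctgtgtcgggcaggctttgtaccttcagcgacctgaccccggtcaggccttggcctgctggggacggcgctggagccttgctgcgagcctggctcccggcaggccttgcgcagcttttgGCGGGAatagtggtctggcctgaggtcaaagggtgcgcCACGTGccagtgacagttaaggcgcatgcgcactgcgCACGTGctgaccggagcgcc
Dmc1: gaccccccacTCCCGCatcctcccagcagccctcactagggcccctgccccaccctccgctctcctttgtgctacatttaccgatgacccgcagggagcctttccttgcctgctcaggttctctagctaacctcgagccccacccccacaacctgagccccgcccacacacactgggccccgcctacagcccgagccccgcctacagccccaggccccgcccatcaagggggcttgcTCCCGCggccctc
Mlh3: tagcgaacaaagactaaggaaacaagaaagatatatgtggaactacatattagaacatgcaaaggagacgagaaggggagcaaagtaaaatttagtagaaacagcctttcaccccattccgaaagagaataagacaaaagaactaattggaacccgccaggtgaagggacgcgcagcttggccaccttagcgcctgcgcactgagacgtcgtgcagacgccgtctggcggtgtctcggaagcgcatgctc

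The E-box was found in *Rec114* and *Hormad1* among the 8 genes, and in 6.02% of all 32851 promoters of the same length. The E2F core was found in *Dmc1*, *Hormad1*, *Msh5* and *Prdm9*, and in 16.9% of all promoters. The *Mlh3*, *Mei1* and *Msh4* windows held neither. The cAMP response element TGACGTCA, present in 1.55% of promoters, and a direct repeat of AGGTCA with a spacer of 5 bases, present in 3 of the 32851, were in none of the 11 windows. These are matches of letters, and binding was not measured.

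*Mlh3* encodes a mismatch repair protein that acts late, at crossovers, and is also expressed outside the germ line. Its signal at 7 dpp was 4.24, 4.26 and 4.06 in B6, 3.87, 4.07 and 4.46 in B6-ChrXMSM and 4.13, 4.19 and 4.07 in B6-ChrXTMSM. The 3 groups overlapped. The log2 fold change was -0.06 in both strains, with standard errors of 0.14 and 0.07 (adjusted p = 0.769 and 0.538 from limma).

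The remaining members had weak signals. *Mei1*, needed for break formation, read 2.47, 2.86 and 2.49 in B6 males of 7 dpp, 1.37, 1.10 and 1.44 in B6-ChrXMSM and 1.76, 1.90 and 1.62 in B6-ChrXTMSM, so that the B6 males were above the others although all were under the filter. *Spo11*, which encodes the cutting enzyme itself, read 1.87, 2.13 and 1.93 in B6, 1.24, 1.00 and 1.62 in B6-ChrXMSM and 1.67, 1.54 and 1.25 in B6-ChrXTMSM. *Msh4*, the partner of *Msh5*, differed from B6 by -0.70 in B6-ChrXMSM and -0.30 in B6-ChrXTMSM. The *Msh5* probe sets differed by 0.18 and -0.24 in B6-ChrXMSM and by 0.08 and -0.13 in B6-ChrXTMSM, and *Prdm9*, which encodes the histone methyltransferase that places the breaks, by -0.42 and -0.08. With no expression filter, the probe sets called lower numbered 8 in B6-ChrXMSM, where those of *Mei1*, *Spo11*, *Msh4* and the second of *Rec114* were added, and 6 in B6-ChrXTMSM.

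**Figure D2:**
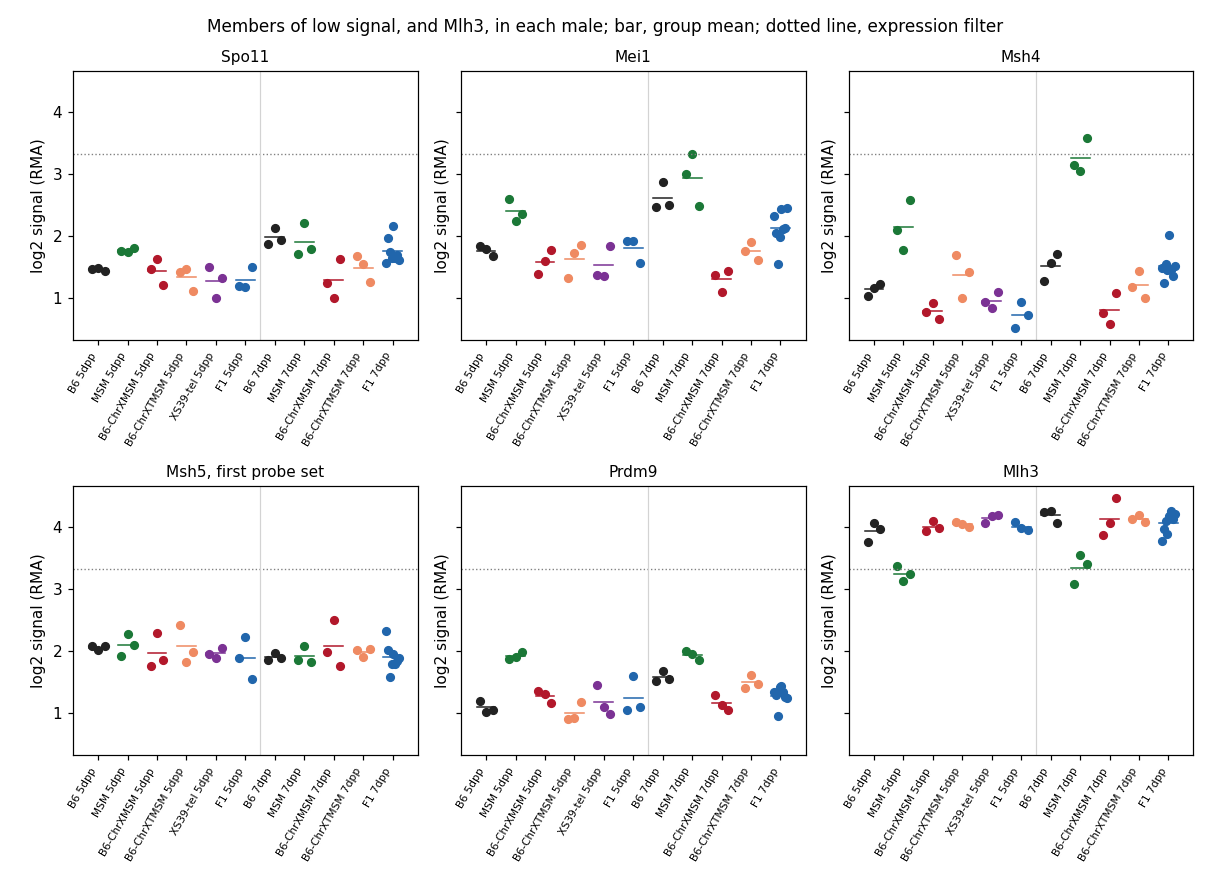
Log2 signal of *Spo11*, *Mei1*, *Msh4*, *Msh5*, *Prdm9* and *Mlh3* in each male, with the 11 groups on the x axis, a bar at the group mean and a dotted line at the expression filter of 3.32. The first 5 genes stay under the line in all group means, the MSM males read highest for *Msh4* at 7 dpp, and *Mlh3* reads lower in MSM than in any other group of either age.

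The germ cell markers moved with the members. Of the 6 listed germ cell markers, the 5 that passed the filter, *Ddx4*, *Dazl*, *Mael*, *Piwil2* and *Tdrd1*, were called lower in both substitution strains at 7 dpp, with list medians of -1.37 and -1.20 over all 6 markers. The log2 of their summed signal ran from 10.19 to 10.33 in B6 males, from 8.72 to 9.16 in B6-ChrXMSM males and from 8.75 to 9.46 in B6-ChrXTMSM males. Their part in the results on the members was not tested. *Dppa3*, the sixth marker, was under the filter. Of 6 markers of differentiating spermatogonia, 5 were lower in each strain, among them *Stra8* (-2.24 in B6-ChrXMSM), and *Ccnd2* was higher. Of 8 markers of undifferentiated spermatogonia, 7 passed the filter and 3, *Lin28a*, *Sall4* and *Zbtb16*, were lower in both strains. Of the 9 Sertoli cell markers, *Cldn11* was called lower in both strains and none higher. *Fabp4*, a marker of adipose tissue, was higher at 7 dpp by 2.51 in B6-ChrXMSM and by 2.71 in B6-ChrXTMSM, and varied widely between males of nearly every group.

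Other genes of recombination and of the axis followed by list. Among synaptonemal complex and cohesin genes, 10 of 11 passed the filter and all 10 were lower in B6-ChrXMSM at 7 dpp, with a median over the 11 of -1.56 against 0.01 over all probe sets tested. They included *Tex12* (-1.96), *Sycp3* (-1.75), *Syce3* (-1.73) and *Syce1* (-1.61), which encode parts of the synaptonemal complex. Among 5 crossover genes, 3 were lower, the X-linked *Tex11* (-1.76), *Ccnb1ip1* (-1.62) and the nuclease gene *Exo1* (-0.66). None of the 4 tested among 8 strand exchange genes was called, and all 3 further genes of break formation and the axis were under the filter, among them *Mei4*, with means of 3.18 in B6 and 1.30 in B6-ChrXMSM. Of 11 paralogs and partners that dividing cells also use, the kinase gene *Atm* alone was called lower (-0.75). The mismatch repair paralogs *Msh3* and *Msh6* differed by 0.05 and -0.30.

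In B6-ChrXTMSM at 7 dpp the counts of these lists were 10 lower for the synaptonemal complex and cohesin, 2 for crossover, none for strand exchange and 1 for the genes shared with dividing cells. The substitution strains were also compared with each other, a comparison added after the values were seen. At 7 dpp no member was called, beside 0.309% of all probe sets called either way, and *Tex15* and *Rec114* differed by 0.07 (standard error 0.18) and -0.04 (standard error 0.21).

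At 5 dpp, in B6-ChrXMSM testes, *Tex15* was the only member called lower than in B6, beside 1.68% of all probe sets called either way at this age. Its signal was 6.56, 6.57 and 6.50 in B6 males and 4.76, 5.69 and 5.39 in B6-ChrXMSM males, a difference of -1.26 on the log2 scale (standard error 0.21, adjusted p = 0.0207 from limma). The groups did not overlap, yet the call was lost without B6-ChrXMSM replicate 3 or without any of the 3 B6 males, with adjusted p between 0.0597 and 0.0809.

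*Rec114* differed by more than *Tex15* at 5 dpp but varied more. It read 3.79, 3.84 and 3.98 in B6 males and 1.5, 3.18 and 2.59 in B6-ChrXMSM males, a log2 difference of -1.45 (standard error 0.37, adjusted p = 0.0689). All B6-ChrXMSM males were below B6, and the call was not reached. Without B6-ChrXMSM replicate 1, the lowest male, the adjusted p was 0.036 at a log2 fold change of -0.98. *Hormad1* read 1.83, 1.96 and 1.56 against 2.36, 2.51 and 2.65 in B6, all under the filter.

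In B6-ChrXTMSM testes at 5 dpp no member was called, beside 0.230% of all probe sets called lower. *Tex15* read 6.43, 6.38 and 6.05, at -0.25 on the log2 scale (standard error 0.10, adjusted p = 0.221), and *Rec114* read 3.83, 3.61 and 3.80, at -0.13 (standard error 0.08, adjusted p = 0.399). *Hormad1* read 2.58, 2.59 and 2.33 and overlapped B6. Set directly against B6-ChrXMSM of the same age, *Tex15* was 1.01 higher (standard error 0.23, adjusted p = 0.0745) and *Rec114* 1.32 higher (standard error 0.37, adjusted p = 0.118) in B6-ChrXTMSM, with no overlap between males and no call, beside 0.496% of all probe sets called higher. When all 11 groups were fitted together, both were called in this comparison, with adjusted p of 0.0215 and 0.00985.

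In XS39-tel testes at 5 dpp no member was called, beside 0.544% of all probe sets called lower. *Tex15* read 5.70, 5.32 and 6.11, below all B6 males, at -0.83 on the log2 scale (standard error 0.19, adjusted p = 0.0946). *Rec114* read 2.83, 2.85 and 3.83, and 1 of its males overlapped B6, at -0.70 (standard error 0.26, adjusted p = 0.227). Without XS39-tel replicate 3, both were called lower, with adjusted p of 0.0106 and 0.00503. Against B6-ChrXTMSM of 5 dpp, XS39-tel had no member call, beside 0.0293% of all probe sets called either way, and *Tex15* and *Rec114* both differed by -0.58 (standard errors 0.21 and 0.26).

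Germ cell markers were also lower at 5 dpp in B6-ChrXMSM, where the 4 of 6 that passed the filter were called. The log2 of the summed germ cell signal ran from 9.16 to 9.31 in B6 males, from 6.92 to 8.27 in B6-ChrXMSM, from 8.78 to 9.15 in B6-ChrXTMSM, from 7.92 to 8.82 in XS39-tel and from 8.34 to 8.60 in F1. The adipose marker *Fabp4* ran from 3.61 to 8.80 among the 3 B6 males of 5 dpp and from 1.39 to 1.89 among those of 7 dpp. Its part in the comparisons of the ages was not tested.

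**Figure D3:**
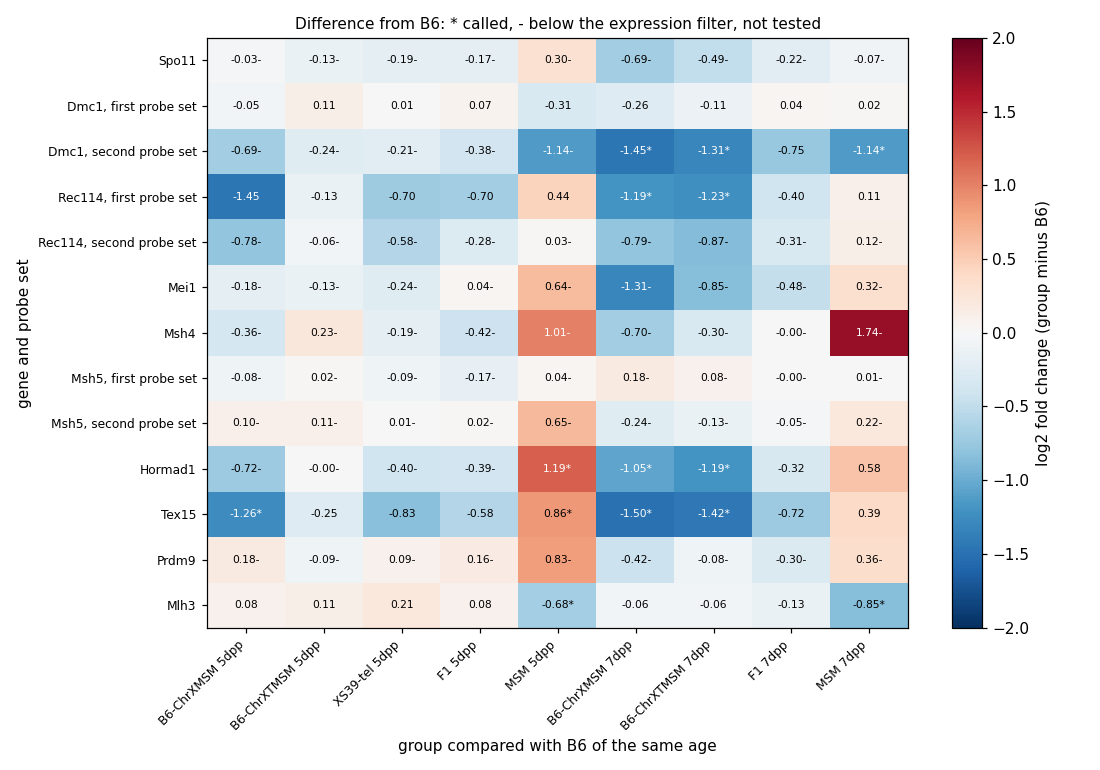
Log2 fold change of the 13 member probe sets (rows) in 9 groups, each against B6 of the same age (columns), in colour and as a number. An asterisk marks a call and a dash a probe set below the expression filter that was not tested. The columns of B6-ChrXMSM and B6-ChrXTMSM at 7 dpp hold the same 4 calls, from -1.05 to -1.5, whereas the F1 column at 7 dpp holds none.

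Between 5 and 7 dpp the same 4 probe sets rose in B6 testes. They were the only member probe sets called of 13, beside 4.15% of all probe sets called higher with age in B6. *Dmc1* by its second probe set rose by 1.39 (standard error 0.07, adjusted p = 2.2e-05), *Hormad1* by 1.28 (standard error 0.08, adjusted p = 5.77e-05), *Rec114* by 0.98 (standard error 0.07, adjusted p = 5.66e-05) and *Tex15* by 0.95 (standard error 0.05, adjusted p = 3.34e-05). The B6 males of the 2 ages did not overlap in any of the 4. *Hormad1* and the second *Dmc1* probe set, with means of 2.50 and 3.13 at 5 dpp, passed the filter through the 7 dpp group alone. Of the 6 germ cell markers, 5 passed the filter and all 5 were called higher at 7 dpp, among them *Dazl* by 1.10, and *Stra8*, a marker of differentiating spermatogonia, was higher by 1.71. The mean log2 signal of the 6 markers was 5.16 at 5 dpp and 6.15 at 7 dpp, and its part in the rise of the members was not tested.

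In B6-ChrXTMSM testes no member changed with age by the test, beside 0.272% of all probe sets called higher and 0.568% called lower. *Tex15* differed by -0.22 (standard error 0.19, adjusted p = 0.491), *Rec114* by -0.12 (standard error 0.16, adjusted p = 0.669), and *Hormad1* and *Dmc1* by its second probe set, under the filter at both ages, by 0.09 and 0.32. The difference in the change with age between B6-ChrXTMSM and B6 was called for all 4, beside 3.04% of all probe sets called lower by this term. *Hormad1* and the second *Dmc1* probe set entered this term only through B6 at 7 dpp, with means of 3.78 and 4.52. The filter itself thus favoured a negative term for both. The term was -1.17 for *Tex15* (standard error 0.22, adjusted p = 0.00517), -1.10 for *Rec114* (standard error 0.19, adjusted p = 0.00363), -1.19 for *Hormad1* (standard error 0.16, adjusted p = 0.0013) and -1.07 for *Dmc1* (standard error 0.17, adjusted p = 0.00247). When all 11 groups shared 1 estimate of the spread, *Hormad1* alone kept its call, and the adjusted p of *Tex15*, *Dmc1* and *Rec114* were 0.0509, 0.0513 and 0.109. The 5 tested germ cell markers had called terms of the same sign, with a median of -1.09 over the 6 listed.

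In B6-ChrXMSM testes no change of a member with age was called, beside 1.33% of all probe sets called higher. *Rec114* was 1.24 higher at 7 dpp (standard error 0.38, adjusted p = 0.082) and *Tex15* 0.71 higher (standard error 0.21, adjusted p = 0.0712), without overlap between the ages. Without B6-ChrXMSM replicate 2 of 5 dpp, both were called, with adjusted p of 0.03 and 0.0282. *Hormad1* and the second *Dmc1* probe set were under the filter at both ages and were not tested. Their means were 1.78 and 2.44 at 5 dpp and 2.73 and 3.07 at 7 dpp, and the ages did not overlap for *Hormad1*. The term for the difference from B6 in the change with age was 0.26 for *Rec114* (standard error 0.45, adjusted p = 0.78) and -0.23 for *Tex15* (standard error 0.24, adjusted p = 0.616), and called for no member, beside 0.693% of all probe sets called lower. With single males left out, it ran from -0.94 to -0.60 for the second *Dmc1* probe set and from -0.51 to -0.17 for *Hormad1*. Both entered this term through B6 at 7 dpp alone. Without B6-ChrXMSM replicate 3 of 5 dpp, the *Dmc1* term was called lower (adjusted p = 0.0357 from limma). The terms of the substitution strains share the B6 males and were not tested against each other.

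**Figure D4:**
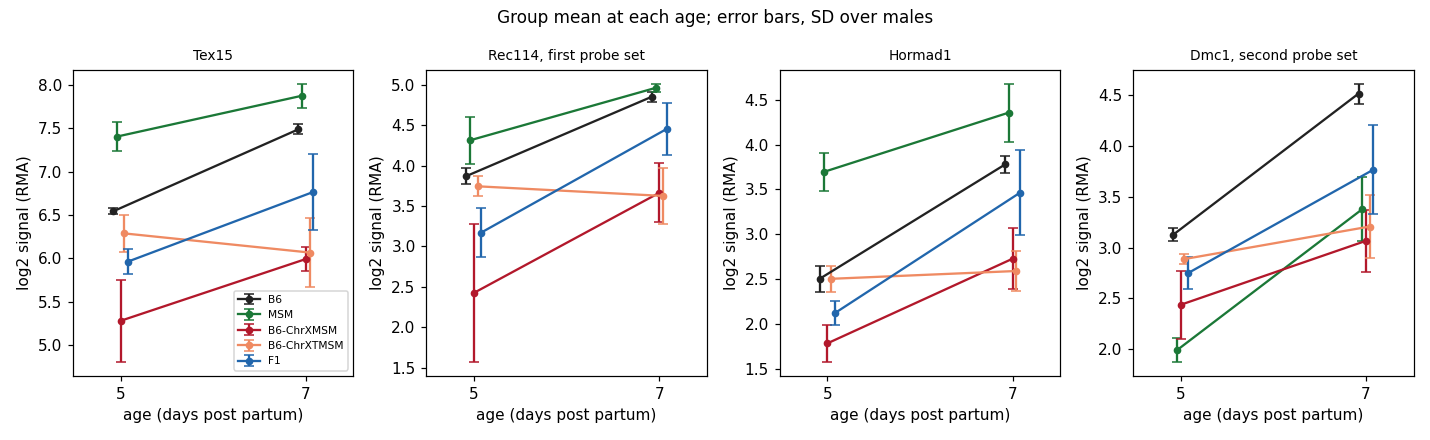
Group mean log2 signal at 5 and 7 dpp for the 4 probe sets in the 5 strains sampled at both ages, with error bars of 1 SD over 3 males (8 for F1 at 7 dpp). The B6 lines rise by 0.95 to 1.39, the B6-ChrXTMSM lines change by -0.22 to 0.32, and the B6-ChrXMSM lines start lowest for *Tex15*, *Rec114* and *Hormad1*.

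F1 males of 7 dpp, which add an MSM chromosome 1 to the distal MSM X chromosome, had group means of *Tex15*, *Rec114*, *Hormad1* and the second *Dmc1* probe set between those of B6 and B6-ChrXTMSM. No member was called against B6, beside 1.36% of all probe sets called lower, and none against B6-ChrXTMSM, beside 0.151% called higher. *Tex15* ran from 6.10 over a median of 6.80 to 7.41 in the 8 F1 males, and all 8 were below the lowest B6 male while 6 of 8 were above the highest B6-ChrXTMSM male. Its log2 fold change was -0.72 against B6 (standard error 0.23, adjusted p = 0.0788 from limma) and 0.70 against B6-ChrXTMSM (standard error 0.25, adjusted p = 0.146).

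*Rec114* ran from 3.95 over a median of 4.41 to 4.86, and 7 of 8 F1 males were above all B6-ChrXTMSM males while 6 were below all B6 males. The log2 fold change was -0.40 against B6 (standard error 0.17, adjusted p = 0.157) and 0.83 against B6-ChrXTMSM (standard error 0.19, adjusted p = 0.0619). *Hormad1* ran from 2.67 over 3.54 to 4.22, with 7 of 8 males above all B6-ChrXTMSM males, at -0.32 against B6 (standard error 0.24, adjusted p = 0.425) and 0.87 against B6-ChrXTMSM (standard error 0.25, adjusted p = 0.0883). *Dmc1* by its second probe set ran from 2.99 over 3.83 to 4.30, all below B6, at -0.75 against B6 (standard error 0.23, adjusted p = 0.0717) and 0.56 against B6-ChrXTMSM (standard error 0.24, adjusted p = 0.211). Against B6-ChrXTMSM, with means of 2.59 and 3.21, *Hormad1* and the second *Dmc1* probe set passed the filter through F1 alone. The filter itself thus favoured a positive difference for both.

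These F1 calls depended on how the spread was estimated. When all 11 groups were fitted together, *Tex15* and *Dmc1* were called lower than in B6 (adjusted p = 0.013 and 0.00627), and *Rec114*, *Hormad1* and *Tex15* were called higher than in B6-ChrXTMSM (adjusted p = 0.0213, 0.00564 and 0.0224). Of these, *Hormad1* was tested against B6-ChrXTMSM through the F1 group alone. The F1 males of 7 dpp varied more than B6 males, with SDs of 0.44 against 0.06 for *Tex15* and 0.32 against 0.06 for *Rec114*.

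The same F1 males were high or low in several members. Replicate 4 was the lowest of the 8 in all 4 key probe sets and in 7 of the 13 member probe sets, and replicate 5 was the highest in 3 of the 4 and in 8 of the 13. The mean log2 signal of the 6 germ cell markers was 5.32 in replicate 4 and 5.40 in replicate 3, the lowest, and 6.35 in replicate 5 and 6.26 in replicate 1, the highest. The part of the germ cell signal in the spread of the members was not tested. Without replicate 4, *Rec114* and *Hormad1* were called higher than in B6-ChrXTMSM (adjusted p = 0.0196 and 0.025), and without replicate 1, *Dmc1* and *Tex15* were called lower than in B6 (adjusted p = 0.0307 and 0.0475). Here too *Hormad1* passed the filter against B6-ChrXTMSM through F1 alone.

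**Figure D5:**
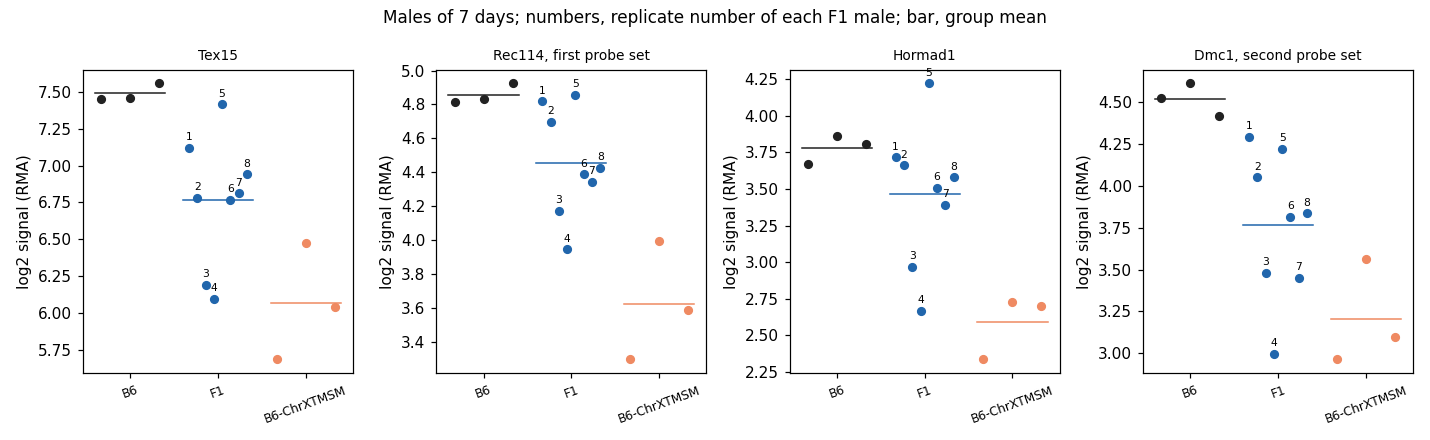
Log2 signal at 7 dpp of the 4 probe sets in 3 B6, 8 F1 and 3 B6-ChrXTMSM males, 1 point per male with a bar at the group mean, and the replicate number above each F1 male. Replicates 3 and 4 lie toward the B6-ChrXTMSM males and replicates 1 and 5 toward the B6 males.

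At 5 dpp the F1 males had no member call against B6, beside 0.390% of all probe sets called lower. *Tex15* read 5.88, 5.87 and 6.13, below all B6 males, at -0.58 on the log2 scale (standard error 0.08, adjusted p = 0.0386), just under 1.5-fold. *Rec114* read 3.40, 2.82 and 3.29, also below all B6 males, at -0.70 (standard error 0.15, adjusted p = 0.113). Of 4 tested germ cell markers, *Ddx4* and *Dazl* were called lower in these F1 males, by -0.63 and -0.82, and the part of the germ cell signal was not tested. Against B6-ChrXTMSM of 5 dpp no member was called, beside 0.0483% of all probe sets called either way, with *Tex15* at -0.33 and *Rec114* at -0.57. From 5 to 7 dpp *Hormad1* rose by 1.35, *Rec114* by 1.28, *Dmc1* by 1.02 and *Tex15* by 0.80 in F1 testes, 4 calls of 13 beside 2.96% of all probe sets called higher, and *Tex15* alone of the 4 had a mean above the filter at 5 dpp. The *Tex15* call, with adjusted p = 0.0295, was lost without any of the 3 F1 males of 5 dpp and with the replicate number as a block (adjusted p = 0.0643), and that of *Dmc1* without replicate 2. No term of F1 by age was called for a member, where 2 probe sets of all, or 0.0117%, were called.

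MSM testes had member calls in both directions against B6. At 5 dpp *Hormad1* was higher by 1.19 (standard error 0.12, adjusted p = 6.88e-05 from limma) and *Tex15* by 0.86 (standard error 0.09, adjusted p = 8.01e-05). These were 2 of the 5 member probe sets tested, beside 16.2% of all tested probe sets called higher, and 5 are too few to compare the shares. *Hormad1*, with a mean of 2.50 in B6 at 5 dpp, passed the filter through MSM alone. Of 7 tested markers of undifferentiated spermatogonia, 5 were called higher in MSM at this age, with a median of 0.80 over the 7, and 1 of 4 tested germ cell markers, *Mael*, was higher by 1.06. The mean log2 signal of the 6 germ cell markers was 5.72 in MSM against 5.16 in B6, and its part in the member differences was not tested. *Hormad1* read 3.79, 3.45 and 3.84 in MSM males, apart from all B6 males of 5 dpp. *Mlh3* was lower at both ages, by -0.68 (standard error 0.10, adjusted p = 0.000527) at 5 dpp, beside 12.0% of all probe sets called lower, and by -0.85 (standard error 0.12, adjusted p = 0.000474) at 7 dpp. Its MSM mean of 3.25 at 5 dpp was under the filter, so that it was tested there through B6 alone. *Dmc1* by its second probe set was lower at 7 dpp by -1.14 (standard error 0.14, adjusted p = 0.000267), while its other probe set differed by 0.02. These 2 of the 6 member probe sets tested stood beside 7.94% of all tested probe sets called lower at 7 dpp.

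*Msh4* read 3.14, 3.04 and 3.58 in MSM males of 7 dpp and 1.28, 1.56 and 1.70 in B6 males, with group means under the filter. MSM carries its own alleles of all 10 genes, and probes that match them less well were left out here on the X chromosome and chromosome 1 only. The part of probe mismatch in these differences was not tested.

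From 5 to 7 dpp, MSM testes had 4 member calls, beside 7.61% of all probe sets called higher. *Dmc1* rose by 1.39 and 0.59 by its second and first probe sets, *Hormad1* by 0.66 and *Rec114* by 0.65, and *Tex15* was 0.47 higher without reaching 1.5-fold. The second *Dmc1* probe set was under the filter at 5 dpp, with a mean of 1.99. The age term for *Hormad1* was -0.61 against B6 (standard error 0.21, adjusted p = 0.0395), 1 call beside 6.30% of all probe sets called lower, and the call was lost with the replicate number as a block and without 8 of the 12 males.

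Against MSM, the substitution strains kept the direction seen against B6 for *Hormad1*, *Rec114* and *Tex15*. The second *Dmc1* probe set was not called against MSM at 7 dpp. Its means were 3.38 in MSM, 3.07 in B6-ChrXMSM and 3.21 in B6-ChrXTMSM, and the males of both strains overlapped those of MSM. At 7 dpp *Hormad1*, *Rec114* and *Tex15* were called lower and *Mlh3* higher in both strains. Beside them, 14.5% of all probe sets were called lower and 9.31% higher for B6-ChrXMSM, and 13.9% and 9.26% for B6-ChrXTMSM. *Tex15* was 3.70-fold and 3.51-fold lower. At 5 dpp the same 4 were called in B6-ChrXMSM, beside 18.9% lower and 12.3% higher. In B6-ChrXTMSM *Hormad1*, *Tex15* and *Mlh3* were called, beside 17.2% lower and 11.4% higher. *Hormad1* passed the filter through MSM alone at both ages, with means of 2.73 in B6-ChrXMSM and 2.59 in B6-ChrXTMSM at 7 dpp. At 5 dpp *Rec114*, at 2.42 in B6-ChrXMSM, also passed through MSM alone, and *Mlh3*, at 3.25 in MSM, through the substitution strains alone. The part of probe mismatch in the comparisons with MSM was not tested.

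Ordered over the 11 groups, *Tex15* had its highest mean in MSM at 7 dpp (7.88 ± 0.14, SD, n = 3), followed by B6 at 7 dpp (7.49 ± 0.06), MSM at 5 dpp (7.40 ± 0.17), F1 at 7 dpp (6.77 ± 0.44, n = 8) and B6 at 5 dpp (6.54 ± 0.03). B6-ChrXMSM at 5 dpp was lowest (5.28 ± 0.48). The ranges of neighbouring groups in this order were apart in 2 of 10 pairs, below MSM at 7 dpp and below B6 at 5 dpp, and overlapped in the other pairs. *Hormad1* had 2 such pairs, *Dmc1* by its second probe set had 1, below B6 at 7 dpp, and *Rec114* had none. The group means spanned 2.60 for *Tex15*, 2.57 for *Hormad1*, 2.54 for *Rec114*, 2.53 for *Dmc1* by its second probe set and 2.53 for *Msh4*, which was under the filter throughout and highest in MSM. They spanned 1.63 for *Mei1*, 1.53 for the second *Rec114* probe set, 0.94 for *Mlh3*, 0.93 for *Prdm9*, 0.81 for the second *Msh5* probe set, 0.70 for *Spo11*, 0.62 for the first *Dmc1* probe set and 0.21 for *Msh5* by its first probe set.

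The genes whose 11 group means ran most like the average profile of the members, taken over the 5 genes whose probe set of highest mean passed the filter in some group (*Dmc1*, *Rec114*, *Hormad1*, *Tex15* and *Mlh3*), were *Syce1* (Pearson's r = 0.995), *Sycp2* (0.995) and *Sycp1* (0.992), which encode synaptonemal complex proteins, *Ndrg4* (0.992) and the germ cell RNA binding protein gene *Dazl* (0.992), of 2430 genes compared. The 11 means share the ages, and the germ cell markers also differed between the groups. The part of the germ cell signal in the coefficients was not tested, and they are a description.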

How the data were processed

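RNA from whole testes of 38 males, 1 male per array, was measured on Affymetrix mouse arrays. The authors deposited log2 signals computed by RMA, run in GeneSpring GX (version not given in the sources used here), which corrects the background of perfect-match probes and applies quantile normalization. They were used without further transformation. The number of arrays limits the precision.

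Probe sets were named through the platform annotation. Of 45101 probe sets, 34958 had 1 gene, 932 several and 9211 none, and 34724 with 1 gene, autosomal or X-linked, were used. Polymorphic probe sets listed by the study were left out, 258 on the X chromosome in all comparisons and 723 on chromosome 1 where F1 males took part.

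Groups were compared in pairs, and by a strain by age term over 4 groups, with limma 3.58.1 (lmFit, eBayes; R 4.3.3), two-sided. Probe sets entered where any compared group averaged over 3.32, the log2 of 10. Calls required p under 0.05 after Benjamini-Hochberg adjustment over all probe sets tested, and 1.5-fold. Comparisons between the 2 substitution strains were added after the values were seen. The member genes, the further lists and the promoter motifs were chosen with earlier results of these data known. Named genes were all members and, of each further list, up to 4 called genes with the largest change in B6-ChrXMSM at 7 dpp. A gene of a further list was read by the probe set with the highest mean, whereas members kept all their probe sets. The other settings tried were no filter, a filter on the overall mean, subtracted array medians, repeated quantile normalization, 1 fit over all 11 groups, a trended robust variance prior, the mean of a gene's probe sets, all probe sets kept, the replicate number as a block, and leaving out single males. Promoter sequences were those of RefSeq on GRCm38.p6. Protein sequences were not used here.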

Additional observations from a re-analysis of the deposited data

Results flagged for a closer look

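The strain by age term, which tests whether the change from 5 to 7 dpp in a strain differs from that in B6, was called for 4 member probe sets in B6-ChrXTMSM and for 1 in MSM. Of all tested probe sets, 3.04% were called lower by this term in B6-ChrXTMSM and 6.30% in MSM. In B6-ChrXTMSM the term was -1.17 for *Tex15*, -1.10 for *Rec114*, -1.19 for *Hormad1* and -1.07 for the second *Dmc1* probe set. *Hormad1* and the second *Dmc1* probe set lay under the expression filter in B6-ChrXTMSM at both ages and in B6 at 5 dpp. They entered this term through B6 at 7 dpp alone, so that the filter favoured a negative term for them. In 1 fit over all 11 groups *Hormad1* alone kept its call in B6-ChrXTMSM. In MSM the term was -0.61 for *Hormad1*, which had been higher than in B6 at 5 dpp. The MSM call was lost in the fit over all 11 groups and without most of the males when left out singly.

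Among the 8 F1 males of 7 dpp, 2 of the 13 member probe sets had 1 male apart from the others, a different male in each. Chance flags about 1 in 20 probe sets. With 13 probe sets read in the same males, 2 cannot be told apart from chance. For *Msh4* the male was replicate 5, at 2.02 against a median of 1.47, with a gap of 0.606 of the whole range. For *Prdm9* it was replicate 3, at 0.96 against a median of 1.31, with a gap of 0.59 of the range. Both genes were under the expression filter in every group. The other groups had 3 males and were not examined in this way.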

How the results depend on the processing

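The lower calls at 7 dpp numbered 4 in each substitution strain without any single male and under all other settings tried but 2. With no filter on low signal they were 8 in B6-ChrXMSM and 6 in B6-ChrXTMSM, and with the filter on the overall mean they were 3 in each, since *Hormad1* was then not tested. The 4 higher calls of B6 from 5 to 7 dpp were likewise 4 without any single male, 6 with no filter and 3 with the filter on the overall mean. Most members had weak signals, and the filter decided which were tested. With no filter the calls were 8 for MSM against B6 at 5 dpp, 8 for B6-ChrXMSM against MSM at 5 dpp and 9 at 7 dpp, 7 for B6-ChrXTMSM against MSM at each age, 1 for B6-ChrXMSM with age, 0 for the MSM by age term and 1 for the B6-ChrXMSM by age term. Over all 34466 probe sets of these fits the calls numbered, in the same order, 6671, 7282, 5811, 6675, 5527, 370, 2639 and 171.

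In 1 fit over all 11 groups the calls against B6 were 2 for B6-ChrXMSM and 1 for XS39-tel at 5 dpp and 2 for F1 at 7 dpp. They were 3 for F1 against B6-ChrXTMSM at 7 dpp, 2 for B6-ChrXTMSM against B6-ChrXMSM at 5 dpp, 1 for B6-ChrXMSM with age, 0 for the MSM by age term and 1 for the B6-ChrXTMSM by age term. Over all probe sets tested, from 16598 to 18298 in number, the calls were, in the same order, 294, 348, 508, 308, 163, 361, 1962 and 382. Repeated quantile normalization gave 1 call for F1 at 5 dpp against B6, subtracted array medians gave 1 for B6-ChrXMSM with age, and the mean over the probe sets of a gene gave 1 for MSM at 7 dpp. The causes were not tested.

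Same-numbered males did not deviate together in all pairs of any comparison, so the replicate numbers were not taken to pair samples. With the replicate number as a block, the MSM by age term had 0 member calls, the first *Dmc1* probe set read -0.015 for F1 against B6 at 7 dpp and *Mlh3* -0.063 for F1 with age, both uncalled, *Tex15* lost its call for F1 with age, where 3 of 4 calls were left, and the counts of the other comparisons stayed within 1.5 times.

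Leaving out single males, the calls ranged from 0 to 2 for B6-ChrXMSM and XS39-tel at 5 dpp and F1 at 7 dpp against B6, for F1 at 7 dpp and XS39-tel against B6-ChrXTMSM, for B6-ChrXMSM with age and for the MSM by age term. They ranged from 0 to 1 for F1 at 5 dpp against B6, the B6-ChrXMSM by age term and B6-ChrXTMSM against B6-ChrXMSM at 5 dpp, and from 2 to 4 for MSM and F1 with age. A few uncalled differences near 0 changed sign. The first *Dmc1* probe set ran from -0.12 to 0.19 for XS39-tel, -0.032 to 0.13 for F1 at 5 dpp, -0.054 to 0.069 for MSM at 7 dpp and -0.033 to 0.091 for F1 at 7 dpp against B6, from -0.14 to 0.024 for F1 and -0.23 to 0.072 for XS39-tel against B6-ChrXTMSM at 5 dpp, from -0.011 to 0.11 for B6-ChrXTMSM with age and from -0.10 to 0.070 for the F1 by age term. *Mlh3* ran from -0.0093 to 0.15 for B6-ChrXMSM at 5 dpp, -0.22 to 0.076 at 7 dpp, -0.0098 to 0.15 for F1 at 5 dpp, -0.037 to 0.26 for B6-ChrXMSM with age, and -0.0020 to 0.080 and -0.13 to 0.16 between the substitution strains at 5 and 7 dpp. *Rec114* ran from -0.30 to 0.044 for B6-ChrXTMSM with age, -0.21 to 0.64 for the B6-ChrXMSM by age term and -0.25 to 0.13 between the substitution strains at 7 dpp, and *Tex15* from -0.13 to 0.26 there. *Hormad1* ran from -0.038 to 0.18 for the F1 by age term, and the second *Dmc1* probe set from -0.13 to 0.18 for the MSM by age term, where it also read 0.0018 with subtracted medians and 0.040 after repeated quantile normalization.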
